A study of Danio rerio with 63 samples.

Results

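The hypothalamus of adult female zebrafish (Danio rerio) was compared between fish with a mutated cyp19a1b gene and wild-type (WT) fish, for every gene that was counted. WT fish were of the AB strain. The mutants came from a line in which TALEN nucleases had left a short frameshift deletion in the second exon of cyp19a1b. Each library was made from the dissected hypothalami of 3 adult females of 1 genotype, with 4 mutant pools (A1, A2, B1 and C1, 12 fish) and 6 WT pools (A1, A2, B1, B2, C1 and C2, 18 fish). These 10 libraries are part of 63, which also cover males, the olfactory bulbs (OB) and the telencephalon (Tel). The exact age of the pooled fish is not given in the sources used here. Pools that carry the same letter or code in both genotypes are not stated to share a clutch, a tank or a day, and the mutants are 1 line.

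Aromatase converts androgens to estrogens, and in zebrafish the brain form, AroB, is the product of cyp19a1b, while cyp19a1a encodes the gonadal form. In the teleost brain AroB is made by radial glial cells, the stem-like cells whose bodies line the ventricles and whose long processes cross the tissue, and which keep dividing in adult fish. The hypothalamus borders the third ventricle, is rich in these cells and in estrogen receptors, and holds the neurons that secrete peptides such as oxytocin, vasotocin, melanin-concentrating hormone and pro-opiomelanocortin. Steroids made there can act through nuclear receptors on transcription or through receptors at membranes.

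RNA was measured by BRB-seq, a method in which each molecule is read near its 3′ end and counted once through its molecular identifier (UMI). Mutant libraries held fewer UMIs (78533 in A1, 171607 in A2, 178541 in B1 and 348901 in C1) than WT libraries (460620.0 to 795858, median 536042), and depth therefore moved with genotype. Expression is given below in CPM, the usual unit for a count as a share of its library total, after TMM scaling, in which a factor for each library is computed from the bulk of its genes. At these depths 3 counts amounted to 8.57 to 33.2 CPM in mutant pools and 4.01 to 6.71 CPM in WT pools, and genes near this level could not be resolved in mutants. The peptide genes oxt, avp and pmch and the transcription factor genes otpb and hmx3a were counted in every pool. Of the other hypothalamic genes looked for, nkx2.1, nkx2.4b, rx3, otpa, sim1a and hcrt had at most 5 counts in any pool. Genes of neighbouring regions were counted as well. Among them, neurod6b of the telencephalon was at a mean of 115 CPM in mutants and 101 CPM in WT. The gene en1b of the midbrain and hindbrain was at 302 and 517 CPM. None of the 10 telencephalic and 20 midbrain, hindbrain and spinal cord genes tested was called by the test described below. The share called over all tested genes was 3.56%, so lists of this size would hold few calls. Pituitary hormone genes had at most 4 counts per pool.

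The mutated gene itself was still transcribed. Mutant pools A1, A2, B1 and C1 held 1194, 926, 735 and 639.5 CPM of cyp19a1b, and WT pools held 857 to 1141 CPM (median 971 CPM). The groups overlapped, with mutant A1 above every WT pool and mutants B1 and C1 below every WT pool. The means were 874 ± 244 CPM (SD, n = 4) and 990.0 ± 131 CPM (SD, n = 6). The log2 fold change was −0.20 ± 0.36 (SE), with an adjusted p of 0.913, and an exact 2-sided permutation test on log2(CPM + 1) gave p = 0.271. A short deletion in the second exon leaves a tag near the 3′ end countable, and the level of the transcript does not check the genotype labels. The gonadal paralog cyp19a1a was near the limit of detection, with group means of 0.97 and 1.34 on the log2(CPM + 1) scale in WT and mutant pools and an exact permutation p of 0.619.

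Differential expression was tested with edgeR's quasi-likelihood test, and genes that changed at least 1.5-fold with a Benjamini-Hochberg adjusted p no higher than 0.05 are called DEGs (differentially expressed genes). In the text below, the value after a fold change is its SE. Of 6464 genes tested, 230 were DEGs (3.56% of the genes tested), 198 lower (3.06%) and 32 higher (0.495%) in mutants. At an unadjusted p of 0.05, 783 genes passed. The lower genes were strongly expressed in WT pools and the changes were large, with a median WT level of 335 CPM against 47.9 CPM for all tested genes, a median mutant level of 77.3 CPM and a median log2 fold change of −1.99 (range −6.98 to −0.69). Of the 198, 183 fell at least 2-fold and 99 at least 4-fold. For 25 of the 198 the mutant mean was under 3 counts per pool, so the size of their fall rests on few counts. A count was present in every mutant pool for 173 of the 198. The higher genes were of modest expression in WT pools and changed less, from a median of 37.6 CPM to 102 CPM (median log2 fold change 1.18, range 0.70 to 3.05), and 21 of the 32 rose at least 2-fold. The WT level is 1 side of the contrast behind the calls, so this difference in WT level was partly built in. At the mutant depth, a fall from a low WT level was also hard to call. For 186 of the lower genes and 15 of the higher genes all mutant pools lay apart from all WT pools, against 5.99% of all tested genes. Several genes named below were chosen for this separation, which therefore describes them and adds nothing to their calls. Without mutant pool A2, 150 DEGs were called.

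**Figure D1:**
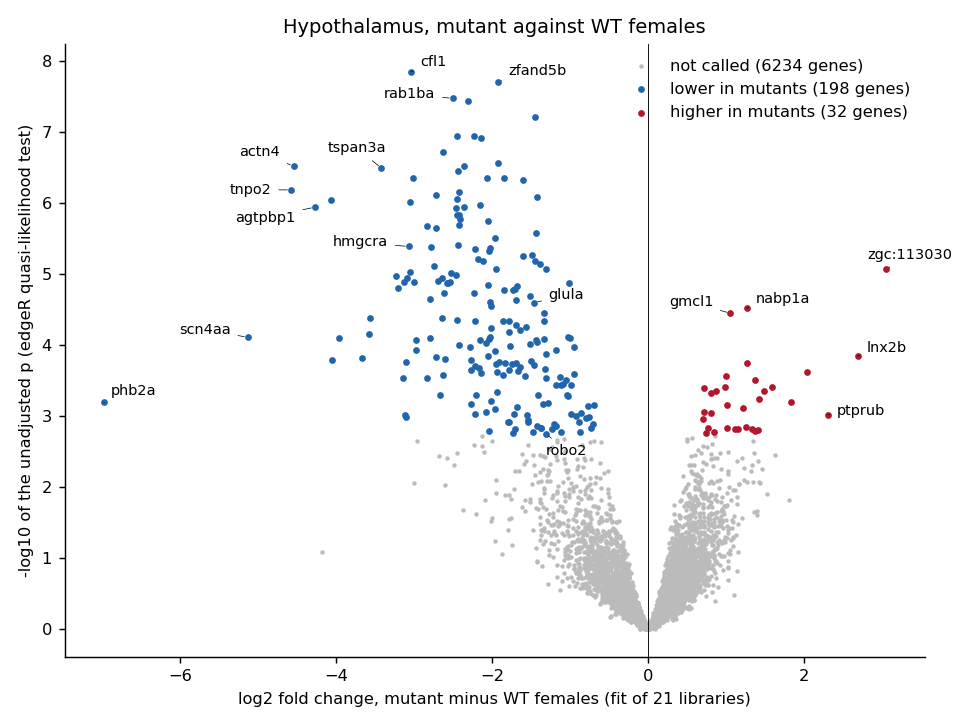
Each point is 1 of the 6464 genes tested, with the log2 fold change of mutant over WT females on the horizontal axis and the −log10 of the unadjusted p on the vertical axis. The 198 lower and 32 higher DEGs are coloured. The lower genes reach −6.98 and the higher ones 3.05.

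The share of calls that were lower depended on how libraries were scaled. With TMM the median change of all tested genes was 0.04 on the log2 scale and 86.1% of the DEGs were lower. With scaling by library total only, that median moved to 0.20, and 260 DEGs were called, 165 lower and 95 higher (63.5% lower). All 165 of these lower genes were among the 198, and all 32 higher genes were called again. When every library was thinned to at most 175074 UMIs, 191 DEGs were called, 174 lower and 17 higher, of which 165 and 7 were among the original lower and higher genes. When the 6 hypothalamus libraries under 235458 UMIs were left out, mutant C1 was the only mutant female pool that remained, its spread was taken from the other groups, and no gene reached an adjusted p of 0.05 (738 at an unadjusted p of 0.05). Every call named below was lost in that setting.

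Genes of the actin cytoskeleton were among the most abundant transcripts to fall. Cofilin 1 (cfl1), which severs actin filaments, held 2055, 2084, 2298 and 2807 CPM in mutant pools A1, A2, B1 and C1 and 12652 to 31867 CPM in WT pools (median 16898 CPM). Each mutant pool was far below each WT pool, and the fall was −3.04 ± 0.38 on the log2 scale with an adjusted p of 5.84e-05. Alpha-actinin 4 (actn4), which cross-links actin filaments at adhesions, held 166, 114, 169 and 194 CPM in the mutant pools and 2316 to 4632 CPM in WT pools (median 4103 CPM). The pools of the 2 genotypes did not overlap (log2 fold change −4.55 ± 0.67, adjusted p = 0.000159). The myosin phosphatase subunit ppp1r12a, which controls contraction of the actin-myosin network, held 133, 124, 153 and 123 CPM in mutants and 379 to 1199.9 CPM in WT pools (median 664 CPM) (log2 fold change −2.43 ± 0.40, adjusted p = 0.00031). All mutant pools were below all WT pools. Of 50 tested genes of actin and adhesion, 6 fell and 1 rose, with a list median of 0.05 beside 0.04 for all genes. The share called was 14%, against 3.56% of all tested genes. The 1 that rose was arpc5a, a subunit of the Arp2/3 complex that nucleates branched actin, at 77.4, 56.9, 61.3 and 57.1 CPM in mutants and 20.1 to 35.1 CPM in WT pools (median 33.4 CPM) (log2 fold change 1.01 ± 0.26, adjusted p = 0.0247). Its call was lost when any of the mutant pools, WT C1 or WT C2 was left out, with a log2 fold change of 0.93 to 1.06. Without the 7 called genes the summed level of the remaining 77 was 9924 to 11250 CPM in mutant pools and 9281 to 9923 CPM in WT pools.

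Several other strongly expressed genes fell by a similar amount. The tetraspanin gene tspan3a, a membrane protein that organises other membrane proteins, held 265, 253, 312 and 397 CPM in mutants and 2148 to 4017 CPM in WT pools (median 3569 CPM) (log2 fold change −3.42 ± 0.51, adjusted p = 0.000159). For tnpo2, transportin 2, which carries RNA-binding proteins into the nucleus, the mutant pools held 44.2, 25.9, 51.1 and 34.3 CPM and WT pools 616 to 1089 CPM (median 985 CPM) (log2 fold change −4.58 ± 0.71, adjusted p = 0.000221). The mutant pools of agtpbp1, an enzyme that removes glutamates from the tails of tubulin and whose loss in mice leads to Purkinje cell degeneration, held 22.1, 41.4, 40.9 and 34.3 CPM against 465 to 827 CPM in WT pools (median 723 CPM) (log2 fold change −4.27 ± 0.68, adjusted p = 0.000262). In all 3 genes the highest mutant pool was far below the lowest WT pool, and the level in mutants rested on few counts for tnpo2 and agtpbp1. In WT males actn4, tspan3a, tnpo2, agtpbp1, camk2d2 and rfc5 moved together, with pools C2, C1 and B1 the lowest in that order. Over the WT male pools actn4 ran from 793 to 3897 CPM, tnpo2 from 173 to 959 CPM and agtpbp1 from 129 to 789 CPM. The calls of these genes are thus not independent observations, and why they moved together was not tested. The adhesion molecule gene pcdh19, a protocadherin, held 265, 269, 409 and 379.7 CPM and 1003 to 2699 CPM in WT pools (median 1904 CPM) (log2 fold change −2.45 ± 0.34, adjusted p = 9.62e-05). Integral membrane protein 2B (itm2ba), at 1370.3, 1164, 1338 and 1370.4 CPM and 3392 to 8081 CPM in WT pools (median 4749 CPM), and elmod1, a regulator of Arf GTPases, at 1426, 1308, 1369 and 1002 CPM and 3065 to 5588 CPM in WT pools (median 3832 CPM), fell by smaller factors (log2 fold change −2.04 ± 0.36, adjusted p = 0.000695 and −1.64 ± 0.35, adjusted p = 0.00412). Their pools did not overlap either. At the other end of the scale, phb2a, a prohibitin of the inner mitochondrial membrane, was not counted in any of the mutant pools and had 1 to 50 counts in WT pools. With 3 counts over the whole mutant group as the floor (3.61 CPM), it was at least 9.86-fold below the WT mean of 35.7 ± 26.8 CPM (SD). The lowest WT pool, at 2.24 CPM, was itself under that floor, so the bound holds only against an uneven WT mean. The call of phb2a was lost without mutant A2, mutant B1 or mutant C1.

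**Figure D2:**
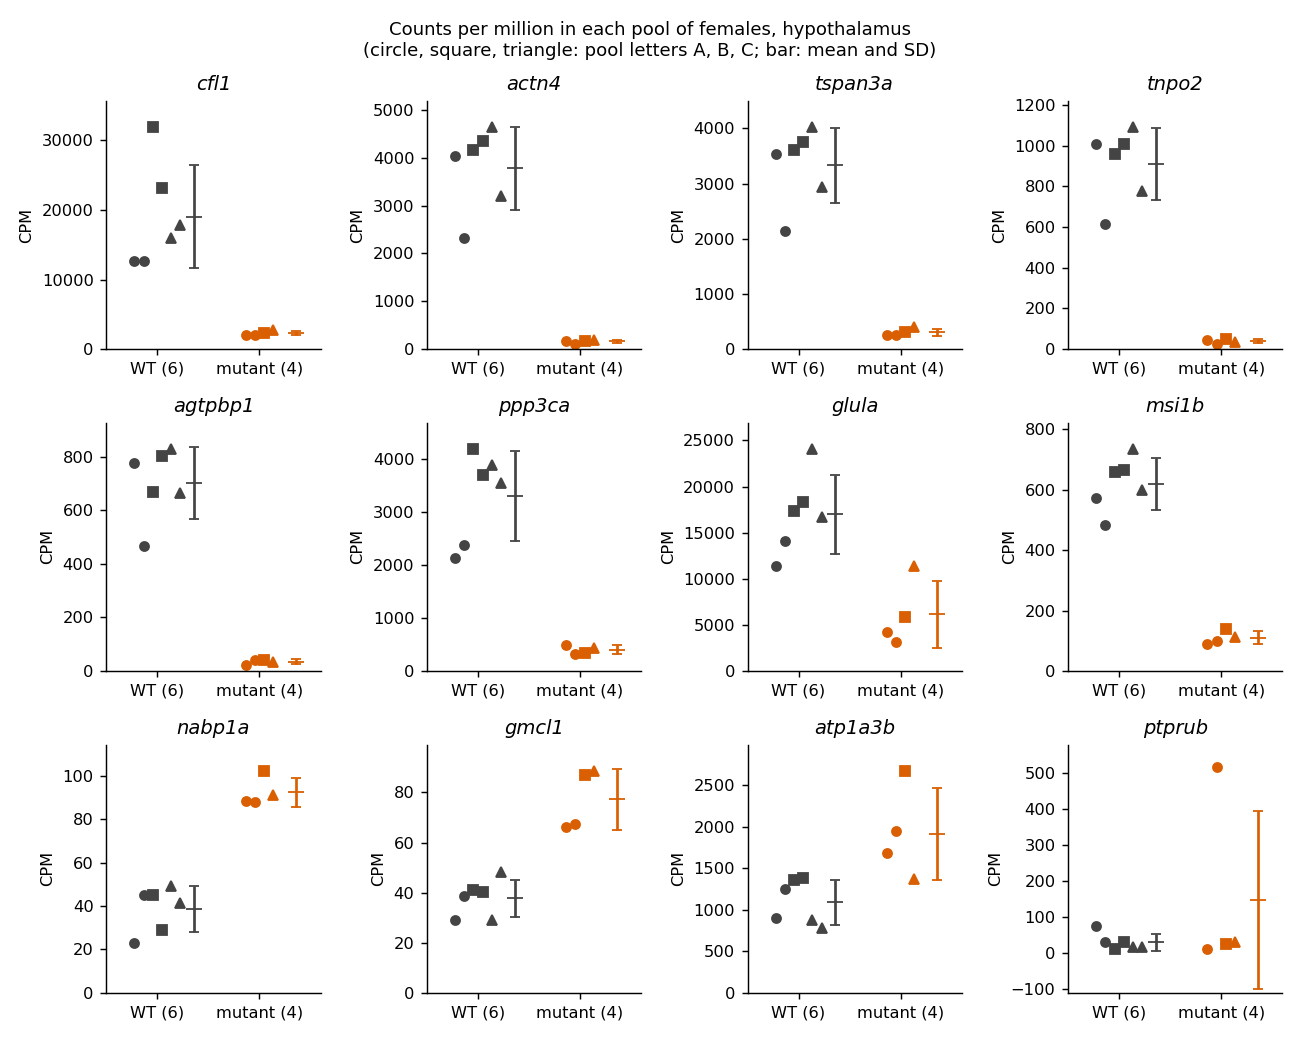
CPM of 12 genes in each of the 6 WT and 4 mutant female pools, with the pool letter shown by the marker, the mean as a line and the SD as a bar. For cfl1 the mutant pools lie between 2055 and 2807 CPM and the WT pools between 12652 and 31867 CPM. For atp1a3b the groups overlap, and for ptprub 1 mutant pool, A2, stands at 517 CPM.

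Genes that guide axons made up a small list in which 4 of 24 tested genes fell and none rose (list median −0.12). Their share of 16.7% stood beside 3.06% of all tested genes that were lower. With scaling by library total only, or with thinned counts, 2 fell. The semaphorin gene sema5a held 55.3, 62.1, 66.4 and 74.2 CPM in mutants and 179 to 264 CPM in WT pools (median 226 CPM) (log2 fold change −1.73 ± 0.33, adjusted p = 0.00147). The netrin receptor gene unc5da held 0, 5.17, 10.2 and 28.6 CPM and 44.9 to 62.6 CPM in WT pools (median 50.7 CPM) (log2 fold change −1.78 ± 0.39, adjusted p = 0.00598), and its change was −3.02 to −1.52 with 1 pool left out. Neither gene had overlapping pools, and unc5da had at most 28.6 CPM in a mutant. The ephrin receptor gene epha7 (−0.86 ± 0.23, adjusted p = 0.0307) and the Slit receptor gene robo2 (−1.31 ± 0.38, adjusted p = 0.0497) passed by a small margin. The call of epha7 was lost when WT B2, WT C2 or any mutant pool was left out (−0.92 to −0.82 over the 10 fits with 1 pool left out), and that of robo2 when any pool other than WT A1 or WT A2 was left out (−1.46 to −1.17).

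In RNA handling, 1 of the longest lists, 14 genes were lower and none higher of 138 tested, or 10.1% against 3.56% of all tested genes (list median −0.08). With scaling by library total only 13 were lower and 1 higher, and with thinned counts 15 were lower and 2 higher of 101 tested. The lists were chosen with earlier results of these data known, so such shares are not independent of the calls. The double-stranded RNA-binding protein gene dgcr8, which starts microRNA processing, held 133, 160.3, 97.0 and 106 CPM in mutants and 274 to 378 CPM in WT pools (median 343 CPM) (log2 fold change −1.44 ± 0.20, adjusted p = 7.87e-05). The nuclear RNA-binding protein gene nono, a paraspeckle component, held 88.4, 139.6, 56.2 and 97.1 CPM and 443 to 879.9 CPM in WT pools (median 746 CPM) (log2 fold change −2.84 ± 0.47, adjusted p = 0.000389). No mutant pool of either gene reached a WT pool. The splicing factor gene srsf7a (−2.03 ± 0.40, adjusted p = 0.00203) and lsm12a, an Sm-like protein gene (−2.45 ± 0.40, adjusted p = 0.00031), also fell, the latter from 137 to 492 CPM in WT pools (median 305 CPM) to 0, 46.5, 40.9 and 99.9 CPM in mutant pools (−3.19 to −2.24 with 1 pool left out). Nuclear transport genes fell in 3 of 27 (11.1%, against 3.06% of all tested genes, list median −0.01). They were tnpo2, the nucleoporin gene nup98 (−2.64 ± 0.54, adjusted p = 0.00316) and the Ran-binding protein gene ranbp1 (−1.08 ± 0.27, adjusted p = 0.0146). The call of ranbp1 was lost without mutant A1 or mutant A2 (−1.27 to −1.002). Without the 14 called genes, the summed level of the other 140 listed mRNA processing genes overlapped, at 12731 to 15479 CPM in mutants and 13549 to 15882 CPM in WT pools.

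Translation factors fell in 7 of 82 tested (8.54%, against 3.06% of all tested genes, list median −0.07), and none rose. The largest in level was bzw1a, a regulator of start codon choice, at 619, 378, 444 and 597 CPM in mutants and 1827 to 3245 CPM in WT pools (median 2901 CPM) (log2 fold change −2.44 ± 0.39, adjusted p = 0.000242). The nascent-chain factor gene btf3 held 553, 522, 475 and 477 CPM and 1405 to 2552 CPM in WT pools (median 2109 CPM) (log2 fold change −2.05 ± 0.34, adjusted p = 0.000353). In both genes the mutant pools were below the WT pools, and those of btf3 were closely grouped. The initiation factor gene eif1b (−2.78 ± 0.48, adjusted p = 0.000653) fell too. None of the 85 tested cytosolic ribosomal protein genes was called, although 76 of them had a log2 fold change below 0 (list median −0.30). Over all tested genes 2965 of 6464 were below 0. The list median was −0.12 with scaling by library total only. In males of the same region 46 of the 85 were called, against 1.93% of all tested genes. For none of the 85 was a difference between the female and the male change called. Of 96 tested nuclear genes of oxidative phosphorylation, 1 fell, the complex I subunit gene ndufb2 (−0.99 ± 0.27, adjusted p = 0.0313), and its call was lost without WT B1, WT B2, mutant A1 or mutant A2 (−1.12 to −0.89).

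Regulators of chromatin and transcription fell in 9 of 115 (7.83%, against 3.06% of all tested genes, list median −0.01). The elongation factor gene supt5h, a subunit of the factor that holds RNA polymerase II on its template, held 77.4, 67.2, 81.7 and 97.1 CPM in mutants and 235 to 459 CPM in WT pools (median 372 CPM) (log2 fold change −2.15 ± 0.34, adjusted p = 0.000262). The pools of supt6h, a histone chaperone of the elongating polymerase, held 22.1, 139.6, 112 and 62.8 CPM and 252 to 320.0 CPM in WT pools (median 290.0 CPM) (log2 fold change −1.69 ± 0.33, adjusted p = 0.00192). Neither gene overlapped between genotypes. The menin gene men1, which encodes a scaffold of histone methyltransferase complexes, held 66.3, 67.2, 66.4 and 85.7 CPM and 211 to 718 CPM in WT pools (median 465 CPM) (log2 fold change −2.65 ± 0.49, adjusted p = 0.00122). The host cell factor gene hcfc1a (−1.31 ± 0.24, adjusted p = 0.00103) and the deacetylase gene hdac1 (−1.50 ± 0.34, adjusted p = 0.00858) fell as well, and that of the DNA methyltransferase dnmt3ab (−1.73 ± 0.50, adjusted p = 0.0495) was at the edge of the threshold. Leaving out mutant A2 removed the call of hdac1 (−1.65 to −1.40), and leaving out any of WT A1, WT B1, WT B2, mutant A1, mutant A2 or mutant C1 removed that of dnmt3ab (−2.17 to −1.50). The Wnt-pathway transcription factor gene tcf7l1b (−2.72 ± 0.43, adjusted p = 0.000239) and the Hippo kinase gene stk3 (−3.06 ± 0.56, adjusted p = 0.0011) also fell.

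Protein turnover and traffic followed the same pattern, with a minority of each list called and nearly all calls lower. In the ubiquitin pathway 10 of 102 tested genes fell (9.8%, against 3.06% of all tested genes) and none rose (list median −0.06). The membrane-bound ligase gene march8 held 221, 114, 189 and 159.9 CPM in mutants and 603 to 1067 CPM in WT pools (median 763 CPM) (log2 fold change −2.24 ± 0.31, adjusted p = 9.62e-05). The conjugating enzyme gene ube2g1a, of endoplasmic reticulum quality control, held 88.4, 119, 133 and 171 CPM and 319 to 681 CPM in WT pools (median 503 CPM) (log2 fold change −1.93 ± 0.28, adjusted p = 0.000159). Mutant pools were below all WT pools in both. The ligase gene kcmf1 (−3.09 ± 0.58, adjusted p = 0.00122) and the modifier gene sumo3b (−1.95 ± 0.36, adjusted p = 0.00103) fell, and so did zfand5b (−1.92 ± 0.24, adjusted p = 5.84e-05), whose mammalian counterpart stimulates the proteasome. Of 47 proteasome genes 1 was called, the activator subunit psme2, which was higher (1.02 ± 0.29, adjusted p = 0.0446) and lost its call when any pool other than WT B1 was left out (0.88 to 1.13).

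In vesicle traffic 9 genes fell and 1 rose of 176 tested (5.68% called, against 3.56% of all tested genes, list median 0.04). The GTPase gene rab1ba, which acts between the endoplasmic reticulum and the Golgi, held 177, 181, 209 and 277 CPM in mutants and 704 to 2243 CPM in WT pools (median 1131 CPM) (log2 fold change −2.50 ± 0.33, adjusted p = 5.84e-05). The translocon subunit gene sec61a1, the channel for proteins entering the endoplasmic reticulum, held 265, 186, 215 and 208 CPM and 719 to 2062 CPM in WT pools (median 1335 CPM) (log2 fold change −2.69 ± 0.50, adjusted p = 0.00128). Both were without overlap, and the highest WT pool of rab1ba, C1 at 2243 CPM, stood above the other WT pools. The lysosome-related organelle subunit gene bloc1s5 (−2.31 ± 0.30, adjusted p = 5.84e-05), the Golgi adaptor gene gga3a (−2.03 ± 0.44, adjusted p = 0.005) and reep2, which shapes the endoplasmic reticulum (−2.15 ± 0.30, adjusted p = 9.62e-05), also fell. The gene zgc:123105, which has no descriptive name in the files, held 387, 310.3, 322 and 425 CPM and 986 to 3405 CPM in WT pools (median 2190.0 CPM) (log2 fold change −2.62 ± 0.38, adjusted p = 0.000138).

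Genes of calcium and calmodulin signalling fell in 3 of 30 tested (10%, against 3.06% of all tested genes, list median 0.13), and none rose. With scaling by library total only, 3 fell and 1 rose. The catalytic subunit of calcineurin, ppp3ca, held 497, 321, 342 and 443 CPM in mutant pools and 2137 to 4177 CPM in WT pools (median 3625 CPM) (log2 fold change −3.05 ± 0.48, adjusted p = 0.000245). The calmodulin-dependent kinase gene camk2d2 held 619, 507, 552 and 405 CPM and 2344 to 3927 CPM in WT pools (median 3576 CPM) (log2 fold change −2.72 ± 0.45, adjusted p = 0.000407). For the calmodulin gene calm2a the difference was smaller, with 972, 962, 1149 and 1171 CPM and 1439 to 2905 CPM in WT pools (median 2163 CPM) (log2 fold change −1.02 ± 0.22, adjusted p = 0.00499). In all 3 genes mutant and WT pools were separate. Without these 3 genes, the summed level of the other 38 listed calcium and calmodulin genes overlapped between genotypes, at 11493 to 13136 CPM in mutants and 11466 to 12406 CPM in WT pools. Among 33 tested genes of synaptic vesicles and SNAREs, napgb, the gamma form of the SNAP adaptor, fell (−1.69 ± 0.32, adjusted p = 0.00139), and the synaptic SNARE gene snap25a, at 4143 to 5934 CPM in mutant pools and 5501 to 10041 CPM in WT pools, was not called.

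No transmitter gene of the lists tested was called, and at a background of 3.56% lists of this size would hold few calls. The numbers tested were 14 genes of GABA and glycine, 17 glutamate receptors and transporters and 10 genes of monoamines, histamine and acetylcholine, with list medians of 0.13, −0.13 and 0.32. Of the GABA and glycine genes 1 was called higher with scaling by library total only and 1 lower with thinned counts. Of 21 pan-neuronal genes, 1 was called, atp1a3b, the neuronal sodium pump subunit, which was higher at 1679.8, 1949.8, 2671 and 1368 CPM in mutants and 781 to 1387 CPM in WT pools (median 1074 CPM) (log2 fold change 0.81 ± 0.22, adjusted p = 0.031). Its pools overlapped, and the call was lost without WT A1, WT C1, WT C2, mutant A1, mutant A2 or mutant B1 (0.55 to 0.93). Of 17 ion channel genes, 1 was called lower, scn4aa, a sodium channel best known in muscle, with 1 count in mutant A1, none in the other mutant pools and 17.2 to 87.2 CPM in WT pools (median 54.7 CPM) (log2 fold change −5.13 ± 1.103, adjusted p = 0.005). The size of this fall rests on the single mutant count and was −7.59 to −4.48 with 1 pool left out.

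Of the peptide and transcription factor genes of the hypothalamus that could be tested none was called, against a background of 3.56%. None of 23 tested hypothalamic transcription factor genes, 15 feeding and arousal peptide genes or 12 reproductive and social peptide genes passed the test, with list medians of 0.22, 0.09 and 0.24. A further 30, 18 and 18 members of these lists were too low to test. At this background, lists of this size would hold few calls. With scaling by library total only 2 of the 12 reproductive and social peptide genes were called higher, and with thinned counts 1. Oxytocin (oxt) held 1857, 1117, 858 and 394 CPM in mutants and 306 to 941 CPM in WT pools (median 705 CPM). Mutants A1 and A2 were above every WT pool and C1 was near the low end of the WT range (log2 fold change 0.64 ± 0.43, adjusted p = 0.624). Vasotocin (avp) lay at 31.0 to 77.4 CPM in mutant pools and 15.7 to 49.5 CPM in WT pools. Melanin-concentrating hormone (pmch) lay at 25.9 to 74.2 CPM in mutant pools and 15.4 to 75.3 CPM in WT pools, and neuropeptide Y (npy) at 259 to 597 CPM in mutant pools and 347 to 503 CPM in WT pools. All of these overlapped. Within the list of somatostatin, opioid, PACAP and CRH genes 1 of 14 was called, crhr2, a receptor of the corticotropin-releasing hormone family, at 66.3, 31.0, 20.4 and 22.8 CPM in mutants and 67.2 to 215 CPM in WT pools (median 142 CPM) (log2 fold change −2.22 ± 0.52, adjusted p = 0.00947). Its call was lost without mutant C1 (−2.52 to −2.05), and the peptide gene crhb held 66.3 to 146 CPM in mutant pools and 76.1 to 115 CPM in WT pools. The transcription factor gene lhx1a had values that did not pass the test (−1.17 ± 0.37, adjusted p = 0.0873).

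Among steroid-related genes 2 were called, where the share called over all tested genes was 3.56%. Of 5 tested receptor genes (6 more were too low to test), pgrmc2, a membrane-associated progesterone receptor component, fell. It held 33.2, 41.4, 30.6 and 74.2 CPM in mutants and 140.4 to 306 CPM in WT pools (median 158 CPM) (log2 fold change −1.86 ± 0.44, adjusted p = 0.0117). WT B1 was the high value, the groups were separate, and the call was lost without mutant A2 or mutant B1 (−2.34 to −1.64). The related gene pgrmc1 lay at 56.9 to 123 CPM in mutant pools and 61.1 to 93.9 CPM in WT pools, and the estrogen receptor gene esr1 at 15.3 to 62.1 CPM in mutant pools and 13.4 to 36.6 CPM in WT pools, both overlapping. Of 11 tested steroid-making enzyme genes, hsd3b7, whose mammalian counterpart acts in bile acid synthesis, rose. Its pools held 22.1, 41.4, 51.1 and 54.2 CPM in mutants and 12.9 to 22.4 CPM in WT pools (median 17.6 CPM) (log2 fold change 1.37 ± 0.33, adjusted p = 0.0129), with mutant A1 inside the WT range, and the call was lost without mutant B1 or mutant C1 (1.202 to 1.49). In cholesterol synthesis 1 of 15 fell, the rate-limiting enzyme gene hmgcra, at 0, 15.5, 25.5 and 82.8 CPM and 125 to 603 CPM in WT pools (median 316 CPM) (log2 fold change −3.07 ± 0.53, adjusted p = 0.000653, and −4.36 to −2.83 with 1 pool left out). In fatty acid activation and elongation 2 genes of 19 fell as well, the elongase gene elovl1b (−1.18 ± 0.26, adjusted p = 0.00655) and the ceramide synthase gene cers3b (−2.27 ± 0.59, adjusted p = 0.0243). The call of cers3b was lost without mutant A1, mutant B1 or mutant C1 (−2.88 to −1.74).

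Radial glial genes were mostly not called, with 2 lower and none higher of 29 tested (6.9%, against 3.56% of all tested genes, list median 0.17). Glutamine synthetase (glula), which turns glutamate into glutamine in glia, held 4244, 3175, 5879 and 11355 CPM in mutant pools and 11349 to 24037 CPM in WT pools (median 17021 CPM). Mutants A1, A2 and B1 were below all WT pools, and C1 was level with the lowest (log2 fold change −1.46 ± 0.29, adjusted p = 0.00204). Musashi 1b (msi1b), an RNA-binding protein of neural stem cells, held 88.4, 98.3, 138 and 114 CPM and 484 to 734 CPM in WT pools (median 629 CPM) (log2 fold change −2.47 ± 0.40, adjusted p = 0.000262), with no overlap. The intermediate filament gene gfap lay at 41.4 to 77.4 CPM in mutant pools and 52.7 to 71.0 CPM in WT pools, and the fatty acid-binding protein gene fabp7a at 2493 to 7635 CPM in mutant pools and 3051 to 7449.6 CPM in WT pools, both overlapping. The calcium-binding protein gene s100b held 11.1, 56.9, 46.0 and 91.4 CPM and 103 to 139.9 CPM in WT pools (median 115 CPM), all mutants below, without passing the test (log2 fold change −0.98 ± 0.35, adjusted p = 0.157). The gap junction gene cx43 held 1459, 1376, 1624 and 1507 CPM and 1885 to 2809 CPM in WT pools (median 2232 CPM), again without overlap and without passing the test (log2 fold change −0.60 ± 0.18, adjusted p = 0.0617). Without glula and msi1b, the summed level of the other 35 listed radial glial genes overlapped, at 7277 to 12965 CPM in mutants and 8302 to 13584 CPM in WT pools. In bulk tissue fewer cells of a type and less RNA per cell cannot be told apart.

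Proliferation genes fell in 3 of 19 tested (1 with scaling by library total only), and 27 more were too low to test. The share lower over all tested genes was 3.06%. The mitotic phosphatase gene cdc25b held 33.2, 20.7, 25.5 and 22.8 CPM in mutants and 81.8 to 190.1 CPM in WT pools (median 149 CPM) (log2 fold change −2.46 ± 0.45, adjusted p = 0.00117), a fall seen in every mutant pool. The clamp loader subunit genes rfc5 (−1.18 ± 0.33, adjusted p = 0.0429) and rfc2 (−1.23 ± 0.35, adjusted p = 0.0447), which act in DNA replication, passed by a small margin. The call of rfc5 was lost with any pool other than WT A2 left out (−1.30 to −1.11), and that of rfc2 with any pool other than WT A1, WT A2 or mutant C1 left out (−1.76 to −1.12). Of 33 tested genes of newborn and maturing neurons, 1 fell, marcksb, an actin-binding substrate of protein kinase C, at 718, 749.9, 608 and 677 CPM and 973 to 1842 CPM in WT pools (median 1297 CPM) (log2 fold change −1.01 ± 0.19, adjusted p = 0.00128). The membrane glycoprotein gene gpm6bb held 376, 574, 546 and 339.8 CPM and 1916 to 3797 CPM in WT pools (median 2133 CPM) (log2 fold change −2.44 ± 0.42, adjusted p = 0.000649). Both genes had separate groups.

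Lists of genes of other cell types held at most 3 calls each, and the share lower over all tested genes was 3.06%. In endothelium and mural cells 3 of 10 tested genes fell (list median −0.23). The scavenger receptor gene stab1 held 144, 82.7, 91.9 and 128 CPM in mutants and 219.5 to 985 CPM in WT pools (median 601 CPM) (log2 fold change −2.45 ± 0.50, adjusted p = 0.00324). The endothelin receptor gene ednraa (−1.83 ± 0.42, adjusted p = 0.00875) and the pericyte gene rgs5a (−1.32 ± 0.31, adjusted p = 0.0102) fell too, and both calls were lost without mutant A2 (over the 10 fits with 1 pool left out, −1.99 to −1.65 and −1.48 to −1.10). Over all 30 listed genes the summed level was 434 to 531 CPM in mutants and 706 to 1563 CPM in WT pools, and without the 3 called genes it overlapped, at 281 to 305 CPM and 248 to 374 CPM. Of the defining endothelial genes, kdrl had at most 2 counts in any pool, cdh5 at most 10 (mean 14.4 CPM in mutants and 4.78 CPM in WT), and flt1 was at a mean of 21.1 CPM in mutants and 11.1 CPM in WT without passing the test (log2 fold change 0.72, adjusted p = 0.705). In microglia and macrophages 2 of 14 fell, the NADPH oxidase subunit gene ncf4 at 11.1, 20.7, 0 and 5.71 CPM and 28.0 to 91.7 CPM in WT pools (median 63.6 CPM) (log2 fold change −2.80 ± 0.60, adjusted p = 0.005, and −3.63 to −2.46 with 1 pool left out) and the progranulin gene grnb. The latter had a count in mutant B1 alone, and its call was lost without mutant A1, mutant A2 or mutant C1 (−6.40 to −2.43). The list sums overlapped (1691 to 2022 CPM and 1639 to 2245 CPM), and the defining gene p2ry12 had at most 2 counts. The marker gene apoeb was at a mean of 587 CPM in mutants and 512 CPM in WT (log2 fold change 0.19) and was not called. In oligodendrocytes the connexin gene cx32.3 fell, from 17.2 to 85.0 CPM in WT pools (median 39.1 CPM) to 0, 5.17, 0 and 2.86 CPM in mutant pools (log2 fold change −3.97 ± 0.85, adjusted p = 0.005), and it was the 1 call of 14. The defining genes mpz, plp1b and plp1a were at means of 1492, 1238 and 25.3 CPM in mutants and 1482, 1442 and 21.4 CPM in WT. Those of mbpb and cldnk were 152 and 134 CPM in mutants and 226 and 187 CPM in WT. The list sums overlapped (5669 to 9151 CPM and 6378 to 9997 CPM). In skeletal muscle 2 of 12 fell, scn4aa and the myoglobin gene mb at 11.1, 0, 15.3 and 2.86 CPM and 55.0 to 117 CPM in WT pools (median 71.0 CPM) (log2 fold change −3.57 ± 0.76, adjusted p = 0.00467, and −4.51 to −3.15 with 1 pool left out). The creatine kinase gene ckma of muscle had no count in mutants and at most 5 in WT pools. Other muscle genes went both ways. Mean CPM in mutants and WT were 25.1 and 21.6 for pvalb2 and 10.6 and 7.13 for tnnt3b. They were 6.03 and 4.49 for acta1b and 9.30 and 15.3 for mylpfa. None of 10 red blood cell genes was called. The part of these cell types in the changes was not tested.

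Genes answering to glucocorticoids and to heat shock gave a few further calls, against a background of 3.56% of all tested genes. Of 9 tested glucocorticoid response genes 2 fell, ddit4, an inhibitor of growth signalling, at 22.1, 15.5, 107 and 11.4 CPM in mutants and 83.9 to 365 CPM in WT pools (median 124 CPM) (log2 fold change −2.23 ± 0.60, adjusted p = 0.0313), and tsc22d3 (−0.88 ± 0.25, adjusted p = 0.0485). Mutant B1 stood apart from the other mutants for ddit4. The call of ddit4 was lost without WT B1, WT B2, mutant A1, mutant A2 or mutant C1 (−3.65 to −1.77), and that of tsc22d3 without any pool other than WT A1, WT A2 or mutant B1 (−1.16 to −0.74). With scaling by library total only, none of the 9 was called. Without ddit4 and tsc22d3, the summed level of the other 11 listed genes was 613 to 662 CPM in mutant pools and 698 to 1121 CPM in WT pools, without overlap. Of 65 heat shock and chaperonin genes 2 fell. The transcription factor gene hsf2 held 221, 124, 76.6 and 365 CPM and 663 to 4050.2 CPM in WT pools (median 1601 CPM) (log2 fold change −3.23 ± 0.60, adjusted p = 0.00119, and −3.86 to −2.86 with 1 pool left out), and the co-chaperone gene ahsa1b (−1.68 ± 0.44, adjusted p = 0.0263) lost its call without mutant A1, mutant B1 or mutant C1 (−1.90 to −1.57). No call was made among 19 clock genes, 15 immediate early genes or 5 neurotrophin genes, lists that would hold few calls at this background.

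**Figure D3:**
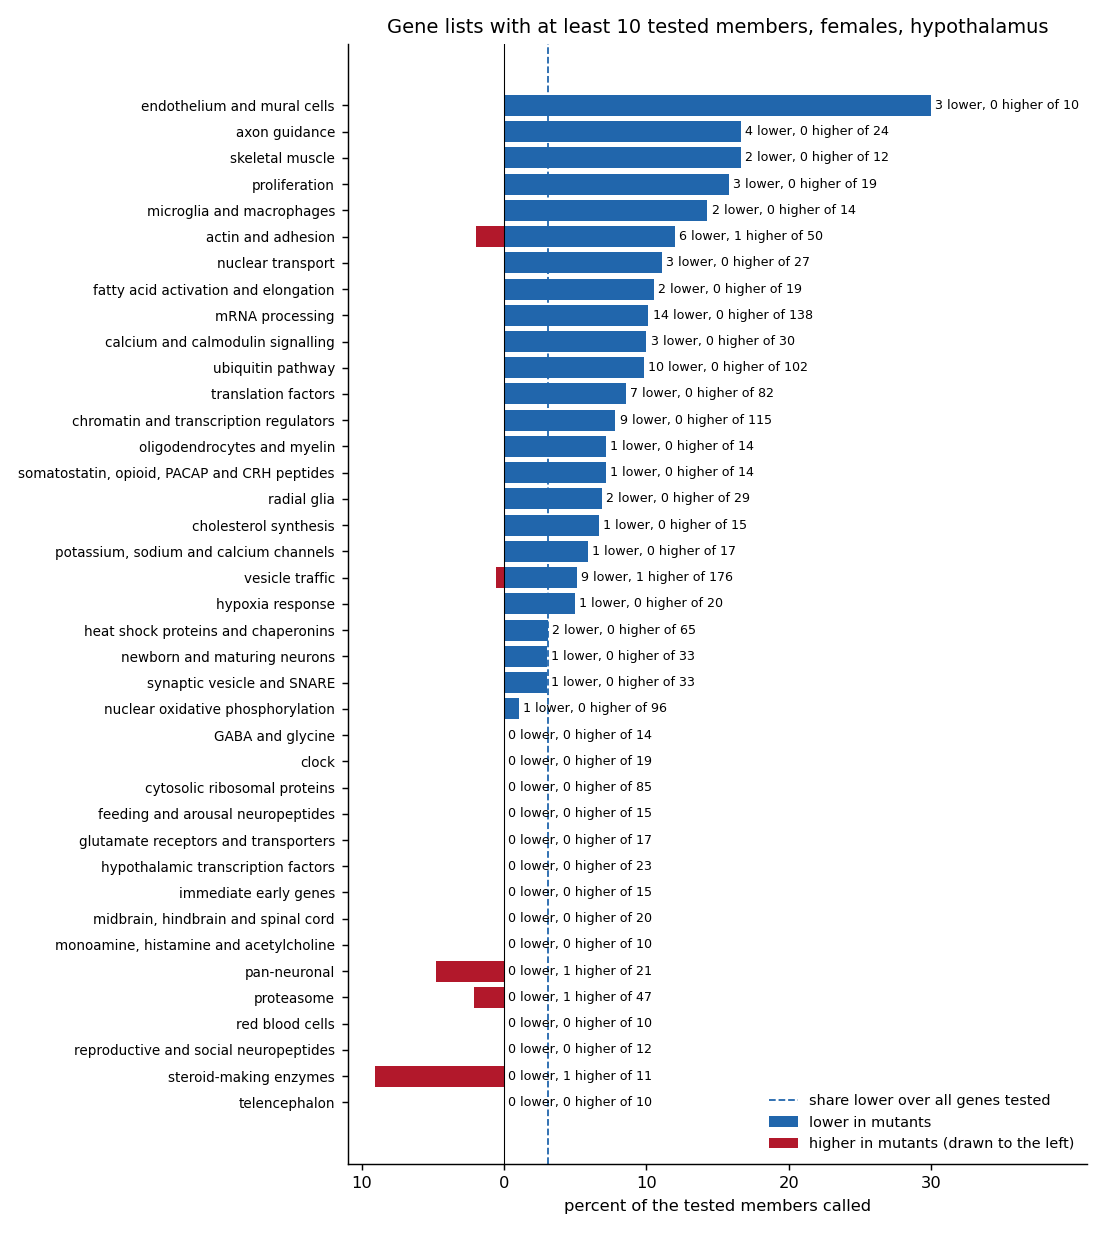
For each gene list with at least 10 tested members, bars give the percentage of tested members that were called lower or higher in mutant females, and the dashed line gives the 3.06% of all tested genes called lower. Most lists hold a few called genes, nearly all lower, and several neuronal, peptide and ribosomal lists hold none.

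The 48 gene lists held 96 of the 230 DEGs (41.7%), 91 lower and 5 higher, and 1505 of the 6464 genes tested (23.3%). Of tested genes on a list 6.38% were called, and of those on no list 2.7%. The lists were chosen with earlier results of these data known, so these shares are not independent of the calls. In lists of at least 10 tested genes the share called ran up to 30.0%, in endothelium and mural cells. Of the genes the study names in its statements on transcripts, 42 were tested, 27 were lower and none was higher. Those genes were chosen by the study on these samples, and their count is not independent of the comparison.

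Many zebrafish genes have a duplicate from the teleost genome duplication. A partner whose symbol differs only in a final a or b was in the table for 61 lower genes and was tested for 41. Of these partners 4 were lower, which is 9.76% against 3.06% of all tested genes. They form 2 pairs in which both genes fell, 1 of them ppp1caa and ppp1cab. None was higher and 37 were not called, with a median log2 fold change of −0.10. While glula fell, glulb held 221, 228, 306 and 517 CPM in mutants and 212 to 344 CPM in WT pools (median 285 CPM) (log2 fold change 0.25 ± 0.26, adjusted p = 0.791). The partner of msi1b, msi1a, held 33.2, 72.4, 35.8 and 17.1 CPM and 15.7 to 65.7 CPM in WT pools (median 25.6 CPM) (log2 fold change 0.28 ± 0.49, adjusted p = 0.906), and that of hmgcra, hmgcrb, held 33.2, 36.2, 30.6 and 34.3 CPM and 28.0 to 51.4 CPM in WT pools (median 34.8 CPM) (log2 fold change −0.16 ± 0.34, adjusted p = 0.931). These 3 pairs were chosen after their values were seen. Reads that matched more than 1 place had been dropped by the authors, so near-identical stretches of a pair were not counted for either, and whether a response differed between partners was not tested.

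Few genes rose, and most of these calls were near the threshold. With any 1 pool left out, 25 of the 32 stayed positive and at least 1.5-fold, and for 6 the fold moved by more than 1.5 times (among them zgc:113030, smpd5, lnx2b and ptprub). The smallest p among genes with separate groups were those of nabp1a, a single-stranded DNA-binding protein gene, at 88.4, 87.9, 102 and 91.4 CPM in mutants and 22.9 to 49.2 CPM in WT pools (median 43.2 CPM) (log2 fold change 1.27 ± 0.25, adjusted p = 0.00238), and gmcl1, a homolog of germ cell-less, at 66.3, 67.2, 86.8 and 88.5 CPM and 29.02 to 48.2 CPM in WT pools (median 39.5 CPM) (log2 fold change 1.06 ± 0.21, adjusted p = 0.00274). Mutant pools were above all WT pools in both, and they were the only higher genes of the 32 that stayed called with each of the 10 pools left out in turn. Both lost their call when the libraries were thinned to at most 175074 UMIs, and gmcl1 also with limma on rlog values. The small GTPase gene rabl2 (1.00 ± 0.24, adjusted p = 0.0118), the synaptic scaffold gene lin7b (0.99 ± 0.24, adjusted p = 0.0154), the phospholipid enzyme gene cds2 (0.72 ± 0.18, adjusted p = 0.0162) and the beta-2-microglobulin gene b2m (0.87 ± 0.22, adjusted p = 0.0173) had separate groups as well. Each of these lost its call with at least 1 mutant pool left out, namely B1 or C1 for rabl2, A1 or C1 for lin7b, A1, A2 or B1 for cds2 and A2 or B1 for b2m. Their log2 fold changes with 1 pool left out stayed at 0.86 to 1.09, 0.88 to 1.095, 0.65 to 0.77 and 0.66 to 0.99, and all 4 calls were lost with thinned counts. The neuronal membrane protein gene nrsn1 (0.72 ± 0.19, adjusted p = 0.03), the transmembrane gene tm9sf2 (0.70 ± 0.19, adjusted p = 0.0353) and the endocytic adaptor gene ap2m1b (1.26 ± 0.35, adjusted p = 0.0443) also had separate groups. Their calls were lost with most pools left out, the exceptions being WT B1, WT B2 and mutant C1 for nrsn1, WT A1 and mutant B1 for tm9sf2 and WT A1 for ap2m1b, while the log2 fold changes stayed at 0.62 to 0.83, 0.53 to 0.79 and 1.11 to 1.43.

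The largest rises came from 1 pool. The gene zgc:113030 held 55.3, 1319, 123 and 74.2 CPM in mutants A1, A2, B1 and C1 and 25.4 to 101 CPM in WT pools (median 39.7 CPM) (log2 fold change 3.05 ± 0.56, adjusted p = 0.00103). The sphingomyelin phosphodiesterase gene smpd5 held 66.3, 548, 66.4 and 37.1 CPM and 30.1 to 68.7 CPM in WT pools (median 38.9 CPM) (log2 fold change 2.04 ± 0.48, adjusted p = 0.0109). The ubiquitin ligase gene lnx2b held 11.1, 233, 40.9 and 17.1 CPM and 5.35 to 19.9 CPM in WT pools (median 11.3 CPM) (log2 fold change 2.69 ± 0.61, adjusted p = 0.00756), and the receptor phosphatase gene ptprub 11.1, 517, 25.5 and 31.4 CPM and 9.76 to 74.8 CPM in WT pools (median 23.1 CPM) (log2 fold change 2.31 ± 0.62, adjusted p = 0.0319). In all 4 genes mutant A2 was several times higher than the other mutant pools. Without it the log2 fold changes were 0.84, 0.26, 1.01 and −0.22, and none of the 4 was called. The call of ptprub was also lost with any WT pool but A1 left out. The highest pool was A2 for 10 of the 32 higher genes, and 24 of the 32 lost their call without A2, as did 60 of the 198 lower genes. Without mutant A1, 43 lower and 19 higher genes lost their call. With each of the 10 pools left out in turn, 124 of the 198 lower genes were called every time.

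Pools with the same letter can be compared on their own, with 2 mutant and 2 WT pools of letter A, 1 and 2 of letter B, and 1 and 2 of letter C. Within the letters the 198 lower genes had a median log2 difference of −1.71 (A), −2.14 (B) and −1.91 (C), and all 198 were lower in each. The 32 higher genes had medians of 1.00, 1.04 and 0.93 and were higher in 32, 32 and 30 cases. These genes were called from the same pools, and the values describe how evenly the letters share the difference.

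The change in females was compared with that in males of the same region (5 mutant and 6 WT pools). Genotype-by-sex interaction, the female log2 change minus the male one, reached an adjusted p of 0.05 for 132 of 6464 genes (2.04%), and the female change was the lower in 125. Of the 230 female DEGs, 116 were among the 132, 112 lower and 4 higher. Calcineurin shows the pattern. In mutant males A1, B1, B2, C1 and C2, ppp3ca held 6804, 5253, 1496, 508 and 1275 CPM, against 1976 to 3873 CPM in WT males (median 2342 CPM). Mutant males A1 and B1 were above all WT males and the other mutant males were below them (male log2 fold change 0.28 ± 0.39, interaction −3.33, adjusted p = 0.00216). For rab1ba mutant males held 1799, 1705, 1155, 844 and 1359 CPM and WT males 497 to 1271 CPM (median 904 CPM) (male log2 fold change 0.60 ± 0.26, interaction −3.11, adjusted p = 0.000163). Cofilin held 18921, 18844, 7263, 3859 and 5712 CPM in mutant males and 12714 to 22308 CPM in WT males (median 14482 CPM), here with A1 and B1 inside the WT range and the other mutant pools below it (interaction −2.48, adjusted p = 0.00314).

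The mutant male pools were thus not alike for these genes. Mutant male A1 also held 93.7 CPM of cyp19a1b, against 475 to 1026 CPM in the other mutant males and 491 to 1587 CPM in WT males. Whether pools A1 and B1 carry the labelled genotype could not be checked from the counts, and the male values and the interaction calls rest on those labels. Over the 198 lower genes the median log2 difference from the WT female mean was −2.03 to −1.84 in mutant females and −0.41 to 0.26 in WT females. It was −0.34 to −0.03 in WT males, but 0.46 and 0.33 in mutant males A1 and B1 and −0.93, −1.40 and −0.91 in mutant males B2, C1 and C2. The 4 female mutant pools were close to each other and lower than all the mutant male pools. The 198 genes were called on the female pools, so lower values in mutant females than in males were partly built in. Leaving out 1 male pool at a time gave 77 (without mutant male B1) to 185 (without mutant male C1) interaction calls, a check chosen after seeing the data. Without mutant male A1 there were 89, 88 of them among the 132. Leaving out mutant female A2 gave 85. The 198 lower genes had a median male change of −0.02, 104 of them were below 0, and 3 were called lower in males, where 89 genes in all were called lower (1.38%).

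**Figure D4:**
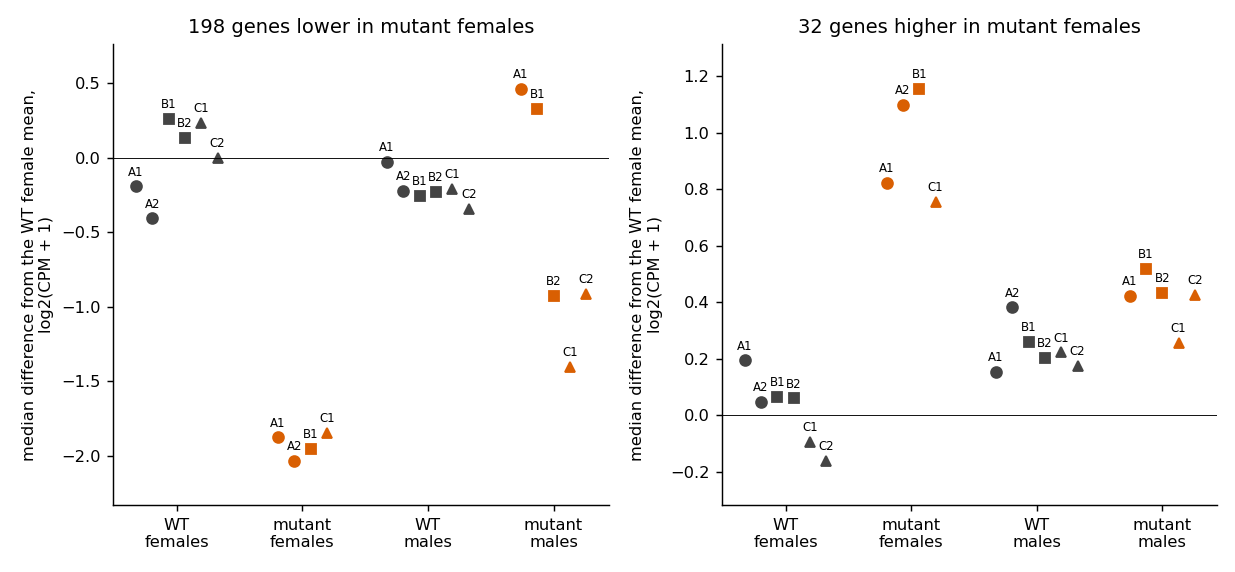
Median log2(CPM + 1) difference from the WT female mean, for the 198 lower and the 32 higher genes, in each of the 21 hypothalamus libraries. For the lower genes mutant females lie at −2.03 to −1.84 and mutant males spread from −1.40 to 0.46, with WT pools of both sexes between −0.41 and 0.26. Both sets of genes were called on the female pools.

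A few genes were called in both sexes. Of these, 5 were lower in mutant females and higher in mutant males, men1, stab1, gstm.3, tlr19 and robo2. Over all tested genes, 36 were called higher in males (0.557%). In mutant males A1, B1, B2, C1 and C2, men1 held 2638, 1310.0, 940.3, 285 and 772 CPM, and it held 135 to 359.8 CPM in WT males (median 307 CPM) (male log2 fold change 2.05 ± 0.37, adjusted p = 0.00713). The pools of stab1 held 3453, 1775, 1200.1, 371 and 1042 CPM in mutant males and 175 to 517 CPM in WT males (median 444 CPM) (male log2 fold change 1.97 ± 0.39, adjusted p = 0.0109). For both genes mutant male A1 was the highest and C1 lay inside the WT range. The glutathione transferase gene gstm.3 was at 155, 82.7, 71.5 and 79.9 CPM in mutant females and 185 to 712 CPM in WT pools (median 453 CPM) (log2 fold change −2.29 ± 0.50, adjusted p = 0.006), and at 2507, 1256, 878, 234 and 915 CPM in mutant males and 121 to 351 CPM in WT males (median 308 CPM). The gene robo2 held 2689.6, 1253, 1155, 320.3 and 830.3 CPM in mutant males and 247 to 441 CPM in WT males (median 386 CPM). In men1, stab1, gstm.3 and robo2, WT male B2 was the lowest WT pool, and mutant males A1 and C1 the highest and lowest mutant pools. These 4 genes moved together over the male pools and are not independent observations, and the reason was not tested. Male changes of these genes were 1.29 to 1.55 without mutant male A1, where stab1 (adjusted p = 0.0619) and gstm.3 (adjusted p = 0.0547) were no longer called in males. The interaction of all 4 held without any single mutant male pool. With limma on rlog values stab1, gstm.3, tlr19 and robo2 were not called in females. For tlr19 the females differed by −2.08 ± 0.56 (adjusted p = 0.0303) and the males by 1.99 ± 0.35 (adjusted p = 0.00713), and its female call was lost without WT B1, WT C1, mutant A2, mutant B1 or mutant C1 (−2.37 to −1.91). Others were lower in both sexes, among them LOC100331190 and the RNA-binding protein gene fubp1 (females −1.78 ± 0.42, adjusted p = 0.0104, males −1.36 ± 0.36, adjusted p = 0.0464). The female call of fubp1 was lost without mutant female B1 or C1 (−2.13 to −1.57), and its male call with any single male pool other than WT C2 left out (adjusted p = 0.0551 to 0.148). In all 125 genes were called in males (1.93%), and this count fell to 22 without mutant male A1 and to 26 without mutant male C2.

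The same female pools were dissected for the OB and the Tel, so the regions share their fish. The lower genes were mostly lower in each of them. Of the 198, 184 were tested in the OB, with a median change of −1.63, 181 below 0 and 87 called lower there (background 2.32% of genes tested), and 191 in the Tel, with a median of −1.78, 190 below 0 and 94 called lower (background 2.41%). In the OB, Tel and hypothalamus, cfl1 changed by −2.82 ± 0.41, −3.10 ± 0.45 and −3.04 ± 0.38, and agtpbp1 by −3.96 ± 0.77, −4.43 ± 0.79 and −4.27 ± 0.68. The higher genes, which were selected on the hypothalamus, had a median change of 0.41 over the 20 tested in the OB, where 1 was called higher (background 0.243%), and 0.48 over the 25 tested in the Tel, where none was (background 0.0451%). Genotype-by-region interaction, the change in the hypothalamus minus the mean change in the OB and the Tel with the pool as a block, reached an adjusted p of 0.05 for none of 5791 genes (0%) with edgeR, with 301 at an unadjusted p of 0.05 and a smallest adjusted p of 0.115. Without the pool block the count was also none, with 214 at an unadjusted p of 0.05. Leaving out 1 pool gave 3 genes without WT A1, 6 without mutant B1 and 3 without mutant C1. Among the female DEGs, gpm6bb changed by −0.10 ± 0.36, −2.34 ± 0.50 and −2.44 ± 0.42 in the OB, Tel and hypothalamus. Its interaction adjusted p was 0.155 by edgeR. That test set the hypothalamus against the mean of the OB and the Tel. With all pools and the filter on low counts, the hypothalamus was not shown to differ from that mean for any gene. Whether the OB differed from the Tel, or from both other regions, was not tested.

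**Figure D5:**
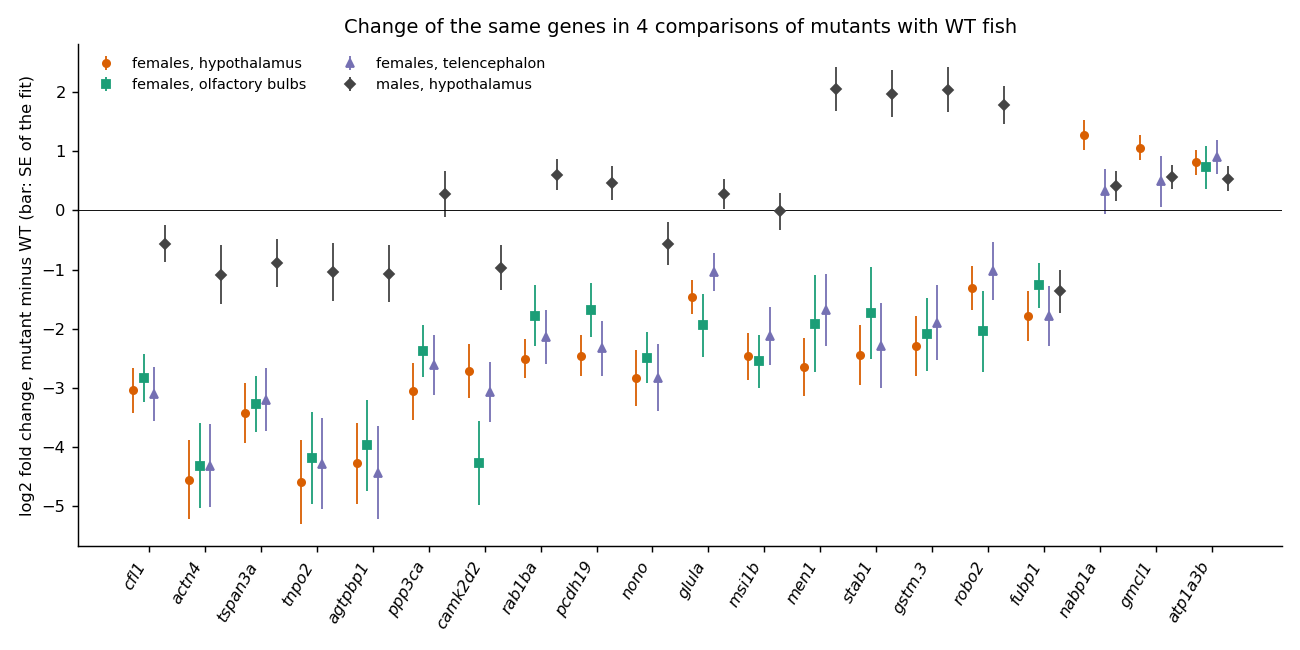
Log2 fold change of mutant over WT, with its SE as a bar, for 20 named genes in the female hypothalamus, OB and Tel and in the male hypothalamus. For cfl1 the female values are −3.04, −2.82 and −3.10 and the male value is −0.56. For men1 and stab1 the male value lies above 0 (2.05 and 1.97) and the female ones below.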

How the data were processed

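The deposited table holds whole-number counts of UMIs per gene, which the authors made by BRB-seq from polyA RNA of pooled tissue. Per the paper's methods, the second reads were aligned to the danRer11 transcriptome, reads matching several places were dropped and distinct UMIs were counted per gene. The submitters' processing notes name BWA 0.7.4.4 and danRer11. Reads near 3′ ends do not separate isoforms, and a pair of similar genes or overlapping genes can share or lose reads.

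Here the 21 hypothalamus libraries were fitted together in 4 groups with edgeR 4.0.16 (R 4.3.3): TMM factors, filterByExpr, a quasi-likelihood test, and Benjamini-Hochberg adjustment over all tested genes. DEGs had an adjusted p of 0.05 or less and at least a 1.5-fold change. The SE is the fold change divided by the root of the F statistic. CPM use the library total times the TMM factor. Interaction with region used the 30 female libraries of 3 regions. Fold changes of genes with few mutant counts depend on edgeR's prior count. Exact permutation tests used a pseudocount of 1 CPM. The 46 pairs of libraries within a group all differed by more than sampling noise (chi-square per degree of freedom 1.63 to 11.9), so each pool was counted once. Nothing states that pools were independent beyond separate fish, and p-values measure the spread between these pools. The fit was also run on simulated counts, and no outcome of that run is used here.

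Alternatives used DESeq2 1.42.0 and limma 3.58.1, other filters and scalings, thinning to 175074 UMIs, blocks and left-out pools. Genes named are cyp19a1b and cyp19a1a, the DEGs of smallest p with pools apart (10 lower and 10 higher), the 5 most abundant DEGs, at most 4 DEGs per list, the genes of strongest interaction, region markers and genes the study names, with zgc:113030, phb2a, fubp1, cx43, lhx1a and the paralog partners added after their values were seen. The members and lists were chosen with earlier results of these data known. Intervals from counting were not used. Some withheld genes are not reported here, although counts over lists include them. No sequence is shown. 0 columns of per-sample values were left unused.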

Additional observations from a re-analysis of the deposited data

Results flagged for a closer look

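Among 214 groups of pools looked at for the genes named in the text, 1 pool stood apart from the rest of its group in 19, by the gap between it and its neighbour as a share of the group's range. About 1 in 20 groups would do so by chance. In mutant A2 these were esr1 at 62.1 CPM (other mutant pools 15.3 to 22.1 CPM), itm2ba at 1164 CPM (other mutant pools 1338 to 1370.4 CPM), lnx2b at 233 CPM (other mutant pools 11.1 to 40.9 CPM), ptprub at 517 CPM (other mutant pools 11.1 to 31.4 CPM), smpd5 at 548 CPM (other mutant pools 37.1 to 66.4 CPM), zgc:113030 at 1319 CPM (other mutant pools 55.3 to 123 CPM). In mutant A1 these were gstm.3 at 155 CPM (other mutant pools 71.5 to 82.7 CPM), psme2 at 66.3 CPM (other mutant pools 36.2 to 40.9 CPM), scn4aa at 11.1 CPM (other mutant pools all at 0). In mutant B1 these were ddit4 at 107 CPM (other mutant pools 11.4 to 22.1 CPM), grnb at 10.2 CPM (other mutant pools all at 0). In mutant C1 these were men1 at 85.7 CPM (other mutant pools 66.3 to 67.2 CPM), pmch at 74.2 CPM (other mutant pools 25.9 to 33.2 CPM). Among WT pools these were bloc1s5 in WT A1 at 82.5 CPM (others 116 to 131 CPM), msi1a in WT A1 at 65.7 CPM (others 15.7 to 26.9 CPM), pgrmc2 in WT B1 at 306 CPM (others 140.4 to 167 CPM), ptprub in WT A1 at 74.8 CPM (others 9.76 to 30.7 CPM), rab1ba in WT C1 at 2243 CPM (others 704 to 1253 CPM), zgc:113030 in WT A1 at 101 CPM (others 25.4 to 47.0 CPM).

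The change with genotype differed between the sexes, by the genotype-by-sex interaction with an adjusted p no higher than 0.05 by edgeR, for 53 of the genes named in the text. Over all tested genes this share was 2.04%. Many named genes were chosen for a small p in females or in the interaction itself. A larger change in females was thus partly built in, and the count of 53 is not independent of the calls. The values in brackets are the female log2 change minus the male one. The female change was lower by the most for scn4aa (−6.18, on 1 count over all mutant female pools, with a female change of −7.59 to −4.48 with 1 pool left out), men1 (−4.70), cx32.3 (−4.43), stab1 (−4.42), gstm.3 (−4.32). It was also lower for mb (−3.71), grnb (−3.59), tnpo2 (−3.54), actn4 (−3.46), ppp3ca (−3.33), kcmf1 (−3.26), agtpbp1 (−3.21), ncf4 (−3.16), rab1ba (−3.11), robo2 (−3.09), lsm12a (−3.03). Smaller differences of the same sign were found for pcdh19 (−2.91), stk3 (−2.83), tcf7l1b (−2.82), eif1b (−2.76), bzw1a (−2.68), cdc25b (−2.67), sec61a1 (−2.66), march8 (−2.62), tspan3a (−2.54), hmgcra (−2.52), ube2g1a (−2.50), cfl1 (−2.48), nup98 (−2.48), msi1b (−2.45), reep2 (−2.43), gga3a (−2.43). The smallest were those of gpm6bb (−2.30), nono (−2.28), sumo3b (−2.27), bloc1s5 (−2.24), rgs5a (−1.999), srsf7a (−1.999), supt5h (−1.97), ppp1r12a (−1.95), zgc:123105 (−1.91), hcfc1a (−1.79), lhx1a (−1.78), itm2ba (−1.76), glula (−1.73), elmod1 (−1.70), dgcr8 (−1.67), zfand5b (−1.61), ranbp1 (−1.52), epha7 (−1.22). In the other direction, the female change was higher for zgc:113030 (3.41), lnx2b (3.31), arpc5a (1.597), and for zgc:113030 and lnx2b mutant A2 was the pool that stood apart. Mutant male pools A1 and B1 differed from B2, C1 and C2 over the genes lower in females, and the part of that spread in these interactions was not tested beyond leaving out 1 pool at a time.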

How the results depend on the processing

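The 230 DEGs of the female hypothalamus numbered 178 to 273 under 12 alternatives that kept all female pools: DESeq2 size factors, scaling by library total, no filter on low counts, at least 5 counts in 10 libraries, all 63 libraries in the fit, only the 10 female libraries, thinned counts, DESeq2, limma on rlog values, no fold threshold and the pool code or letter as a block. Leaving out 1 female pool gave 150 to 225, with the fewest without mutant A2. When the 6 libraries under 50% of the median hypothalamus total were left out, both the DEGs and the genotype-by-sex interaction came to 0, and 1 mutant female pool remained. The 132 interaction genes numbered 85 to 154 with a female pool left out and 77 to 185 with a male pool left out, the latter chosen after seeing the data. The genotype-by-region interaction, 0 with the pool as a block and 0 with no replicate block, gave 5 genes with no filter on low counts and 0 to 6 with 1 pool left out. The causes were not tested.

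The pool codes were not taken as pairs. Deviations of mutant and WT pools that share a code correlated at −0.01 to 0.38 across genes, and 1 of the 4 mutant pools correlated best with its own code. That was C1, at 0.38 with WT C1 and 0.24 with WT C2, and below 0 with every other WT pool. Mutants A2 and B1 correlated best with the other WT pool of their letter, A1 (0.25) and B2 (0.099). Mutant A1 did so with WT B1 (0.055). The letter was not part of the main fit. With the code or the letter as a replicate block, 250 and 273 DEGs and 122 and 160 interaction genes were called.

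The cyp19a1b change stayed under the threshold in every alternative. Of the genes named, glulb reversed to −0.14 without mutant C1, hmgcrb to 0.0021 with scaling by library total, msi1a to −0.25 without mutant A2 (−0.25 to 0.68 with 1 pool left out) and to −0.87 without the low-total libraries, ptprub to −0.22 without mutant A2 (−0.22 to 2.88 with 1 pool left out), and oxt and smpd5 to −0.77 and −0.25 without the low-total libraries. Depth limited genes below about 33.2 CPM in mutant A1 and 8.57 CPM in mutant C1, the levels of 3 counts. A further limit is that genotype, depth and line cannot be told apart, since every mutant pool had fewer UMIs than every WT pool and came from 1 line.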

Other observations

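Among 49 genes too low for the fit or central to the design, tested 1 by 1 on log2(CPM + 1) with an exact permutation test of 4 against 6 pools (smallest possible p 0.00476), 2 reached that smallest p. The catechol methyltransferase gene comtb, which acts on dopamine, was at a mean of 4.68 in mutants and 3.02 in WT pools (adjusted p = 0.117 over the 49 in the same exact permutation tests), and all mutant pools were above all WT pools. The creatine kinase gene ckma was at 0 in every mutant pool and at a mean of 2.56 in WT pools (adjusted p = 0.117, same exact tests). Its WT mean of 5.23 CPM was under the level of 3 counts in every mutant pool (8.57 to 33.2 CPM). Depth and genotype therefore cannot be told apart for ckma. The dopamine synthesis gene th was at 1.91 in mutants and 2.66 in WT pools (exact permutation p = 0.429), and the photoreceptor gene gnat1 at 1.098 and 3.90 (exact permutation p = 0.0286, adjusted p = 0.408). None passed the adjustment, and these tests make no allowance for the lower depth of the mutant libraries.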
